A study of Mus musculus with 12 samples.

Results

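The heat shock factor target chaperones described here are 10 mouse genes, Hspa1a, Hspa1b, Hspa8, Hsph1, Dnajb1, Hsp90aa1, Hsp90ab1, Hspd1, Hspe1 and Hspb1. They were found by symbol in the deposited TPM table, joined to the deposited count table by gene identifier, and are 10 of its 15767 genes. RNA was sequenced in 12 libraries of Neuro-2a, a mouse neuroblastoma cell line of WT genotype, with 4 libraries in each of 3 groups. The groups received a mimic of miR-155, designed to add the microRNA, an inhibitor of miR-155, designed to bind it, or the control small RNA miR-Con. In all 3 groups the small RNA was delivered with the reagent RNA Fit without serum or antibiotics, complete medium was given after 4 h, and culture went on to day 2. The labels number the libraries 1 to 4 within each group. They do not say what a number marks, nor whether libraries come from separate cultures, so the p-values rest on a spread between samples that may be technical only.

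Heat shock factors are transcription factors that bind heat shock elements, inverted repeats of the unit nGAAn, and raise the transcription of chaperone genes when unfolded proteins accumulate. HSP70 proteins bind exposed hydrophobic stretches of client proteins, J-domain proteins deliver the clients and stimulate the HSP70 ATPase, and HSP110 proteins exchange the nucleotide. HSP90 proteins act later, on kinases, steroid receptors and other nearly folded clients, while the mitochondrial chaperonin and the small heat shock proteins form separate systems.

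The promoters are shown because heat shock elements near the start site are the feature after which the group is named. RefSeq promoter windows (GRCm38.p6, 250 bases before to 50 bases after an annotated start) were at hand for 7 of the 10 genes, as 10 windows. Either 2-unit element, GAANNTTC or TTCNNGAA, each of which reads the same on both strands, was present in 7 of the 10 windows and in 6 of the 7 genes, against 15.1% of 32851 windows of all genes. Dnajb1 had no match in either of its windows. Elements of 3 alternating units, in which GAANNTTC is followed by NNGAA or TTCNNGAA by NNTTC, so that each contains both 2-unit elements, were found for Hspd1, Hspe1 and Hsph1, in 4 of the 10 windows, against 0.603% of all windows. The windows are not independent, since those of Hsph1 overlap and hold the same run, as do windows of Hspd1 and Hspe1. Those of Hspa1a and Hspa1b are near copies, so the counts overstate the number of distinct sites. Capitals mark every matched element in the sequences, which run 5′ to 3′ on the strand of the gene. Hspa1b lies on the minus strand at chr17:34959189-34959488, with its match beginning 104 bases before the start, and its window is identical to that of Hspa1a at 296 of 300 bases.

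Hspa1b: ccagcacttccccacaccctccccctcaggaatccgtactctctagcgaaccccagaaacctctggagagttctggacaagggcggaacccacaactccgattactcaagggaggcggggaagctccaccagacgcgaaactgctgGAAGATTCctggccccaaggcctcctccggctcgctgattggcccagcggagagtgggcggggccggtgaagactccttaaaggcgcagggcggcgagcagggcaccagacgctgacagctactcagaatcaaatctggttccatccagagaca

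Hspe1 (plus strand, chr1:55087898-55088197) and Hspd1 (minus strand) are head-to-head neighbours whose windows overlap by up to 285 bases, so 1 run of alternating units, beginning 89 bases before the Hspe1 start, stands in the windows of both.

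Hspe1: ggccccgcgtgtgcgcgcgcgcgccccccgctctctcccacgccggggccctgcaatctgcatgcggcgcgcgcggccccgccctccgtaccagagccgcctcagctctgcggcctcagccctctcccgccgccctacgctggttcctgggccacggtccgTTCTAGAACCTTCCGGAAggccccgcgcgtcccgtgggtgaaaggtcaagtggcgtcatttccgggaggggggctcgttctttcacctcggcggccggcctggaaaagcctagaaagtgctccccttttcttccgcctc

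Hsph1 (minus strand, chr5:149636266-149636565) had 1 match 54 bases before the start and a run of alternating units that begins at base 15 after it.

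Hsph1: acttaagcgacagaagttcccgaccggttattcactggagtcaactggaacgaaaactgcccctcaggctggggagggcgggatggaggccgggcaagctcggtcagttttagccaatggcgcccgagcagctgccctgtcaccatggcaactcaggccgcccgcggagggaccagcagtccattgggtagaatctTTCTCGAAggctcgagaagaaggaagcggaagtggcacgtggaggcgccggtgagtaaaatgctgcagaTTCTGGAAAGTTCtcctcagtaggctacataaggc

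A match is a string of letters in the reference, and binding was not measured. The reagent's microRNA is shown with its seed, bases 2 to 8, in capitals (RefSeq, GRCm38.p6).

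mmu-miR-155-5p: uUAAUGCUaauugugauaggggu

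Among the 10 genes, 1 had a match to this seed in its longest 3′ UTR annotated in GENCODE M21 (GRCm38), counting the 8mer AGCATTAA and, as shorter forms, the 7mer-m8 match AGCATTA or the 7mer-A1 match GCATTAA. Such a match was present in 1986 of 15662 genes, or 12.7%. The gene was Dnajb1, with a single 8mer that begins at base 1061 of a UTR of 1837 bases and is shown in capitals within 30 bases of the UTR.

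Dnajb1: tgcagtgtgacAGCATTAAagactgatgct

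Total counts ran from 60695388 to 74200532 per library. Of the 15767 genes, 13014 passed the filter on low counts and were tested, and 8 of the 10 chaperones were among them. Hspa1a and Hspb1 were too low. Most markers of the neuroblastoma lineage were present: 9 of 10 neuron and neuroblastoma markers passed the filter, and their summed level was 5510 to 5920 TPM over the 12 libraries. Of the other markers, 3 of 6 for fibroblasts, 3 of 6 for glia and 2 of 6 for immune and endothelial cells passed it, with summed levels of 0.807 to 1.73 TPM, 3.42 to 5.11 TPM and 1.74 to 3.04 TPM. Col3a1, Lum, Aqp4 and Adgre1, counted among these markers, had no row under their symbols in the deposited data. In RNA from whole cultures, fewer cells of a type and less RNA per cell cannot be told apart.

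The levels of the 10 genes spanned several orders of magnitude per transcript length. Hsp90ab1, the constitutive cytosolic HSP90, averaged 6234 ± 602 TPM (SD, n = 12) and was above each of the others in all 12 libraries. The chaperonin Hspd1 (mitochondrial HSP60) averaged 1100.0 ± 91.8 TPM, and its co-chaperonin Hspe1 (HSP10) averaged 558 ± 44.1 TPM. Hspa8, the constitutive HSC70, averaged 435 ± 200 TPM, and Hsp90aa1, the stress-inducible cytosolic HSP90, averaged 385 ± 85.0 TPM. Dnajb1, the HSP40 that serves cytosolic HSP70, averaged 74.1 ± 17.1 TPM, and Hsph1, the HSP110 nucleotide exchange factor, averaged 68.5 ± 14.8 TPM. The stress-inducible HSP70 genes were near the limit of detection, at 0.483 ± 0.221 TPM for Hspa1b and 0.140 ± 0.0835 TPM for Hspa1a, and the small heat shock protein Hspb1 averaged 0.0462 ± 0.0854 TPM. Ranges over the libraries did not overlap between Hsp90ab1 and Hspd1, Hspd1 and Hspe1, Hsp90aa1 and Dnajb1, or Hsph1 and Hspa1b. The other neighbours in this order overlapped. The order itself changed with the replicate number, since Hspa8 was above Hspe1 in TPM in 3 of 3 libraries numbered 4 and in 0 of the 9 libraries numbered 1 to 3.

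**Figure D1:**
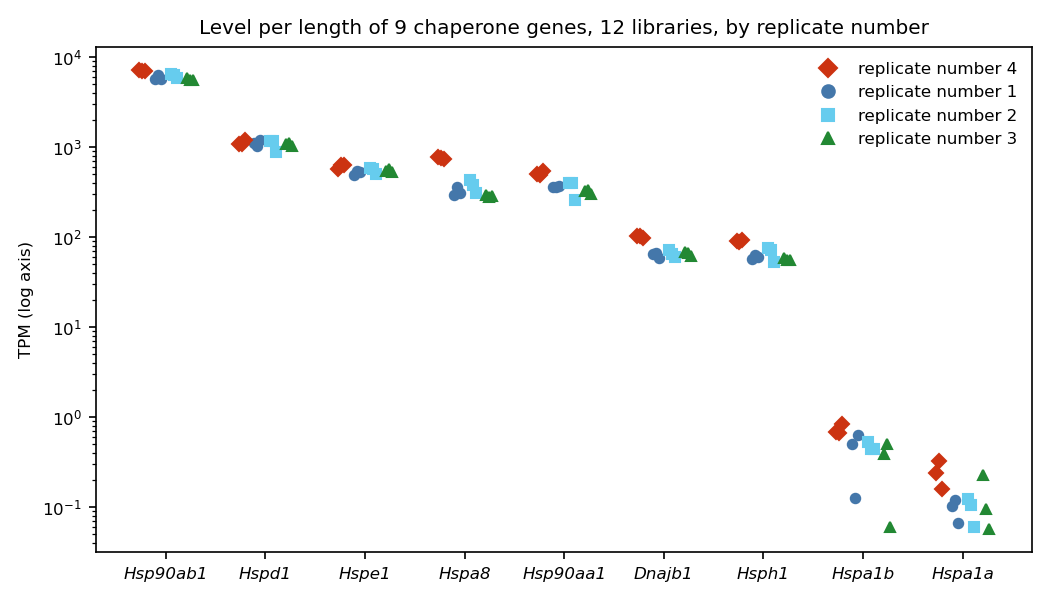
TPM of 9 of the chaperone genes on a log axis, with 3 libraries (1 of each treatment) at each replicate number and number 4 at the left of each gene; Hspb1, at 0 in 9 libraries, is not drawn. The Hspa8 points of number 4 stand above those of numbers 1 to 3, while the Hspd1 points of all 4 numbers overlap.

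Neither reagent moved the group by a difference larger than the spread between replicates, in which differences by replicate number are included. In mimic against control, 0 of the 8 tested chaperones passed an adjusted p of 0.05 (edgeR's quasi-likelihood test, Benjamini-Hochberg over 13014 genes), where 0.0% of all genes tested did. In inhibitor against control, 0 of 8 passed, where 0.0% of all genes did, and in mimic against inhibitor, 0 of 8 passed, again beside 0.0%. At an unadjusted p under 0.05, 71 (0.546%), 67 (0.515%) and 77 (0.592%) genes were found in these 3 comparisons. DESeq2 called 3, 1 and 6 genes, with 0 of the chaperones among them. With no effect, a share of about 0.05 of genes is expected under that unadjusted p. The model held treatment only, so its spread was widened by differences by replicate number. Within numbers 1 to 3 alone, 379, 189 and 163 of 13052 genes were found, and 0 passed the adjusted p. The low shares thus do not show that the reagents had no effect. The median log2 fold change of the 8 chaperones was 0.08 in mimic against control, with 7 of 8 above 0, and the median of all genes was -0.01. It was 0.10 in inhibitor against control, also with 7 of 8 above 0, beside -0.01 for all genes. These comparisons share the control libraries. For mimic against inhibitor the median was -0.01, with 3 of 8 above 0, beside 0.00 for all genes. The libraries of 2 treatments overlapped for each of the 10 chaperones in each of the 3 comparisons, while 0.684%, 0.645% and 0.861% of all genes had no overlap.

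The replicate number, in contrast, went with large differences. Across the 3 treatments, the libraries numbered 4 held more Hspa8, Dnajb1, Hsp90aa1, Hsph1, Hsp90ab1 and Hspe1 RNA than those numbered 1 to 3. Of the 8 tested chaperones, 6 rose in number 4 and 0 fell (edgeR with treatment and number in the model, adjusted p under 0.05). Over all genes 41.5% differed, with 20.4% higher and 21.1% lower, so a difference in number 4 was common among all genes. The median log2 fold change was 0.59 for the 8 chaperones and -0.00 for all genes. All 3 libraries numbered 4 were above all 9 others in 7 of the 8 tested chaperones, the exception being Hspd1, where 17.9% of all genes tested showed such a separation. Number 4 was singled out because earlier results of these data showed it to stand apart. A test that singles out no number called the same 6 chaperones (edgeR F test of any difference between the 4 numbers), where 27.3% of all genes passed. The number 4 difference varied between treatments beyond the spread in 0 of the 8 chaperones (adjusted p = 1 for each, edgeR interaction test), where 0.0538% of genes passed. With 1 library of each treatment numbered 4, that test rests on single libraries. Library totals do not separate the numbers, at 62389350 to 68734250 counts in number 4 and 60695388 to 74200532 counts in numbers 1 to 3. What the number marks cannot be told apart from any batch, culture or day that it may stand for.

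**Figure D2:**
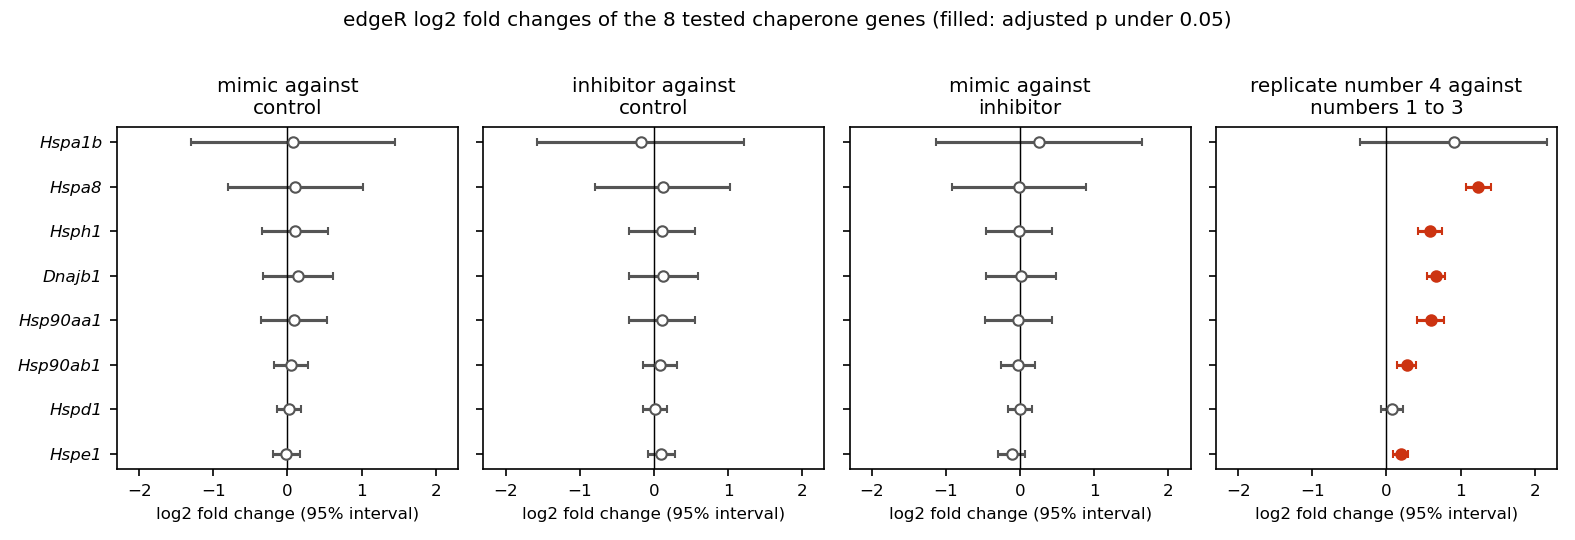
log2 fold changes of the 8 tested chaperone genes with 95% intervals (edgeR) in the 3 treatment comparisons and in number 4 against numbers 1 to 3; filled points passed an adjusted p of 0.05. Every interval of the treatment comparisons contains 0, while 6 of the 8 intervals in the number comparison lie above 0.

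Among the 10 chaperones, Hspa8 showed the largest of the differences that passed. HSC70, its product, folds new proteins and uncoats clathrin vesicles. In mimic libraries it had 1545 CPM (counts per 1000000 of the TMM-scaled library size) in number 4, and 550.5, 826 and 572 CPM in numbers 1, 2 and 3. Inhibitor libraries had 1512 CPM in number 4, and 739, 734 and 549.5 CPM in numbers 1, 2 and 3. Control libraries had 1453 CPM in number 4, and 593, 644 and 562 CPM in numbers 1, 2 and 3. Each library numbered 4 was far above the 9 others, which spread from 549.5 to 826 CPM with no gap by treatment. Hspa8 rose 2.36-fold in number 4 against numbers 1 to 3 (log2 fold change 1.24, 95% interval 1.07 to 1.41, edgeR adjusted p = 1.65e-06). The ratio of number 4 to the mean of numbers 1 to 3 was 2.38 in mimic, 2.24 in inhibitor and 2.42 in control. The log2 fold change was 0.10 in mimic against control (95% interval -0.81 to 1.01, edgeR adjusted p = 1) and 0.12 in inhibitor against control (-0.79 to 1.03, adjusted p = 1). Within numbers 1 to 3 alone, these were 0.12 (edgeR adjusted p = 0.92) and 0.17 (adjusted p = 0.999).

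Dnajb1, whose product stimulates the HSP70 ATPase and binds HSF1 in a feedback loop, carried the seed match printed above. It had 99.0 CPM in mimic number 4, and 58.1, 66.05 and 64.2 CPM in mimic numbers 1, 2 and 3. Inhibitor libraries had 98.3 CPM in number 4, and 64.5, 59.2 and 62.4 CPM in numbers 1, 2 and 3. Control libraries had 90.3 CPM in number 4, and 53.2, 58.7 and 58.0 CPM in numbers 1, 2 and 3. Number 4 was again the highest of each treatment, and mimic was above control at 4 of 4 numbers, as was inhibitor. Neither difference was larger than the spread between the libraries of a group, which holds the number 4 difference as well, with log2 fold changes of 0.14 in mimic against control (95% interval -0.33 to 0.61) and 0.13 in inhibitor against control (-0.34 to 0.60), both at an edgeR adjusted p of 1. Mimic against inhibitor gave 0.01 (-0.46 to 0.48, edgeR adjusted p = 1), so the gene with the seed match was not measurably lower in mimic. Within numbers 1 to 3 the mimic against control value was 0.15 (edgeR adjusted p = 0.911) and the inhibitor against control value 0.13 (adjusted p = 0.999). In number 4 against numbers 1 to 3, Dnajb1 rose 1.59-fold (log2 fold change 0.67, 95% interval 0.55 to 0.78, edgeR adjusted p = 7.92e-06). Its ratios of number 4 to the mean of numbers 1 to 3 were 1.58 in mimic, 1.58 in inhibitor and 1.59 in control.

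Hsph1, whose product exchanges the nucleotide of HSP70 and holds unfolded proteins, had 317 CPM in mimic number 4, and 185, 253 and 202 CPM in mimic numbers 1, 2 and 3. Inhibitor libraries had 306 CPM in number 4, and 225, 242 and 192 CPM in numbers 1, 2 and 3. Control libraries had 313 CPM in number 4, and 198, 189.9 and 190.4 CPM in numbers 1, 2 and 3. The 3 libraries numbered 4 were within 306 to 317 CPM and above the highest of the others, 253 CPM in mimic number 2. Hsph1 rose 1.50-fold in number 4 (log2 fold change 0.59, 95% interval 0.43 to 0.75, edgeR adjusted p = 0.000119). Its log2 fold change was 0.10 in mimic against control (95% interval -0.34 to 0.55, edgeR adjusted p = 1) and 0.11 in inhibitor against control (-0.33 to 0.56, adjusted p = 1). Within numbers 1 to 3 these were 0.15 (edgeR adjusted p = 0.911) and 0.19 (adjusted p = 0.999).

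The stress-inducible HSP70 genes, nearly silent in unstressed cells of many types, were read at a few counts per library. Hspa1b had 19 counts in mimic number 4 and 14, 16 and 13 counts in mimic numbers 1, 2 and 3. Inhibitor libraries had 19 counts in number 4 and 4, 12 and 15 counts in numbers 1, 2 and 3, and control libraries had 25 counts in number 4 and 18, 14 and 2 counts in numbers 1, 2 and 3. Each number 4 library was the highest of its treatment, yet the low counts of inhibitor number 1 and control number 3 gave a wide spread. The log2 fold change in number 4 was 0.90 (95% interval -0.36 to 2.17) and did not pass (edgeR adjusted p = 0.23). It was 0.08 in mimic against control (95% interval -1.30 to 1.46, edgeR adjusted p = 1) and -0.18 in inhibitor against control (-1.57 to 1.22, adjusted p = 1). Hspa1a, which encodes nearly the same protein, had 7 counts in mimic number 4 and 3, 4 and 8 counts in mimic numbers 1, 2 and 3. It had 10 counts in inhibitor number 4 and 4, 3 and 3 counts in inhibitor numbers 1, 2 and 3, and 5 counts in control number 4 and 2, 2 and 2 counts in control numbers 1, 2 and 3. Without the filter, Hspa1a gave a log2 fold change of 1.21 in number 4 (edgeR adjusted p = 0.369). How reads were divided between these near-identical copies is not known, so their separate values are uncertain. Summed over both, 26 to 30 counts were found in libraries numbered 4 and 4 to 21 counts in those numbered 1 to 3.

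**Figure D3:**
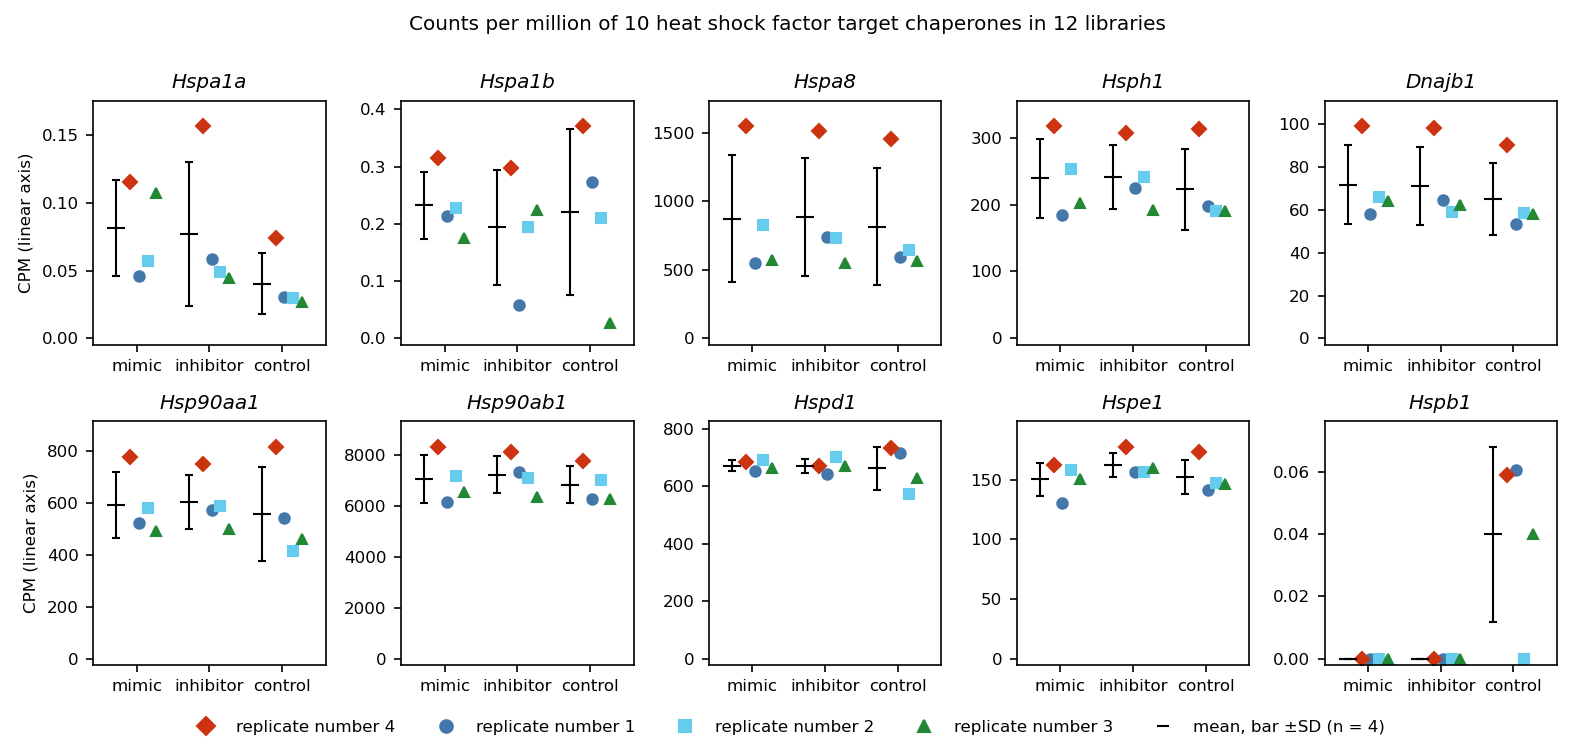
CPM of each of the 10 chaperone genes in every library, by treatment, with number 4 at the left of each treatment and mean ± SD (n = 4) beside the points. Red diamonds (number 4) lie above the other symbols of their treatment for Hspa8, Hsph1, Dnajb1, Hsp90aa1, Hsp90ab1 and Hspe1, while treatments overlap in every panel.

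The cytosolic HSP90 paralogs differed in how far they moved. Hsp90aa1 had 774 CPM in mimic number 4, and 521, 581 and 492 CPM in mimic numbers 1, 2 and 3. Inhibitor libraries had 749.8 CPM in number 4, and 571, 588 and 499.8 CPM in numbers 1, 2 and 3. Control libraries had 815 CPM in number 4, and 539, 414 and 459 CPM in numbers 1, 2 and 3. The libraries numbered 4 lay at 749.8 CPM or above and the others at 588 CPM or below, with the lowest in the control group. Hsp90aa1 rose 1.51-fold in number 4 (log2 fold change 0.60, 95% interval 0.42 to 0.78, edgeR adjusted p = 0.000213). The ratio of number 4 to the mean of numbers 1 to 3 was 1.46 in mimic, 1.36 in inhibitor and 1.73 in control. Its log2 fold change was 0.09 in mimic against control (95% interval -0.36 to 0.54, edgeR adjusted p = 1) and 0.11 in inhibitor against control (-0.34 to 0.56, adjusted p = 1). Within numbers 1 to 3, these were 0.17 (edgeR adjusted p = 0.911) and 0.23 (adjusted p = 0.999).

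Hsp90ab1 had 8312 CPM in mimic number 4, and 6157, 7155 and 6526 CPM in mimic numbers 1, 2 and 3. Inhibitor libraries had 8109 CPM in number 4, and 7302, 7102 and 6325 CPM in numbers 1, 2 and 3. Control libraries had 7760.0 CPM in number 4, and 6257, 7008 and 6271 CPM in numbers 1, 2 and 3. Every library numbered 4 was above the highest of the others, inhibitor number 1, by a smaller margin than for Hsp90aa1. Hsp90ab1 rose 1.21-fold in number 4 (log2 fold change 0.27, 95% interval 0.15 to 0.40, edgeR adjusted p = 0.0028). It had log2 fold changes of 0.04 in mimic against control (95% interval -0.18 to 0.27, edgeR adjusted p = 1) and 0.08 in inhibitor against control (-0.15 to 0.31, adjusted p = 1), and within numbers 1 to 3 of 0.02 (adjusted p = 0.963) and 0.09 (adjusted p = 0.999). The TPM ratio of Hsp90ab1 to Hsp90aa1 was 12.8 to 14.6 in libraries numbered 4 and 15.6 to 22.8 in those numbered 1 to 3, with no overlap. The TPM ratio of Hspa8 to Hsp90aa1 was 1.38 to 1.56 in number 4 and 0.815 to 1.2 in numbers 1 to 3, also with no overlap. Both ratios restate the unequal rises of these genes. Ratios of other gene pairs were not taken, and 41.5% of all genes tested differed in number 4 (edgeR).

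The mitochondrial chaperonin genes, which share the promoter region printed above, showed the smallest differences by number. Hspd1 had 684 CPM in mimic number 4, and 652, 691 and 663 CPM in mimic numbers 1, 2 and 3. Inhibitor libraries had 671 CPM in number 4, and 644, 703 and 670.1 CPM in numbers 1, 2 and 3. Control libraries had 734 CPM in number 4, and 716, 572 and 630.4 CPM in numbers 1, 2 and 3. The libraries numbered 4 lay among the others, and the control group had both the highest and the lowest values. The log2 fold change of Hspd1 was 0.08 in number 4 (95% interval -0.07 to 0.23, edgeR adjusted p = 0.391), 0.02 in mimic against control (-0.14 to 0.18, adjusted p = 1) and 0.02 in inhibitor against control (-0.14 to 0.18, adjusted p = 1). Within numbers 1 to 3 the treatment values were 0.06 (edgeR adjusted p = 0.911) and 0.07 (adjusted p = 0.999).

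Hspe1, the lid of the chaperonin, had 162 CPM in mimic number 4, and 131, 158 and 151 CPM in mimic numbers 1, 2 and 3. Inhibitor libraries had 178 CPM in number 4, and 157, 157 and 159.6 CPM in numbers 1, 2 and 3. Control libraries had 173 CPM in number 4, and 141, 147 and 146.5 CPM in numbers 1, 2 and 3. The number 4 libraries were the highest of each treatment, though mimic number 4 was only slightly above inhibitor number 3. Hspe1 rose 1.14-fold in number 4 (log2 fold change 0.19, 95% interval 0.08 to 0.30, edgeR adjusted p = 0.0086), a call that was lost without control number 4 (log2 fold change 0.16, adjusted p = 0.0832). Its log2 fold change was -0.02 in mimic against control (95% interval -0.20 to 0.17, edgeR adjusted p = 1) and 0.10 in inhibitor against control (-0.08 to 0.28, adjusted p = 1). Within numbers 1 to 3 these were 0.01 (adjusted p = 0.972) and 0.12 (adjusted p = 0.999). Inhibitor was above control at 4 of 4 numbers. The TPM ratio of Hspd1 to Hspe1 was 1.72 to 1.93 in number 4 and 1.77 to 2.31 in numbers 1 to 3, which overlap.

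Hspb1 (HSP27), a small heat shock protein that holds unfolded clients and is strongly induced by heat in many cells, was read only in the control group. It had 0 counts in all 8 mimic and inhibitor libraries, against 4, 0, 3 and 4 counts in control libraries numbered 1 to 4. A library with 0 counts allows up to 3 counts, which is 0.04 to 0.0496 CPM here, so the control values lie at about the same level as that limit. Without the filter on low counts, edgeR gave unadjusted p-values of 0.0447 in mimic against control and 0.0462 in inhibitor against control, with an adjusted p of 1 in both, and DESeq2 gave unadjusted p-values of 0.272 and 0.279.

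The RNA of the heat shock factors themselves did not rise with the chaperones. Of the 4 tested genes among the factors and their binding protein, 0 rose and 2 fell in number 4. Over all genes tested, 20.4% were higher and 21.1% lower in number 4, so a fall there was common, and the list is small. Hsf1, the main factor of the heat response, had 115 CPM in mimic number 4, 109 CPM in inhibitor number 4 and 107 CPM in control number 4, against 119 to 145 CPM in the 9 libraries numbered 1 to 3. Hsf1 was thus lowest in the 3 libraries in which most of its target chaperones were highest, and fell by 0.24 on the log2 scale (edgeR adjusted p = 0.00882). This call was lost without control number 4 (log2 fold change -0.18, edgeR adjusted p = 0.0777). Hsbp1, which binds the trimeric factor and inhibits it, had 118 to 122 CPM in number 4 and 141 to 151 CPM in numbers 1 to 3, and fell by 0.29 (edgeR adjusted p = 0.000161). How many of all genes lay lower in number 4 without overlap, as these do, was not counted. The HSF1 protein and its activity were not measured. Hsf2, a factor active in development, had a log2 fold change of -0.07 in number 4 (edgeR adjusted p = 0.492) and 0.00 in both treatment comparisons with control (adjusted p = 1). Hsf1 had -0.07 in mimic against control and -0.06 in inhibitor against control (edgeR adjusted p = 1 for both). Hsf5 was too low for the filter, with 10, 8, 13 and 4 counts in mimic libraries 1 to 4, 0 counts in all 4 inhibitor libraries and 9, 8, 11 and 15 counts in control libraries 1 to 4. DESeq2 called it in inhibitor against control (adjusted p = 0.0416) and in mimic against inhibitor (adjusted p = 0.0282), whereas edgeR without the filter gave an adjusted p of 1 in both.

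Other chaperones that work with the 10 genes were read from lists. In the 3 treatment comparisons, 0 of the 111 list entries tested, the 8 chaperones included, passed edgeR's test, and each had an adjusted p of 1. The entries also include the cell identity markers described below, and 12 genes reported as HSF1 targets stand in another list as well. In number 4 against numbers 1 to 3, the remaining HSP70 and HSP110 family had 6 of 11 genes higher, 0 lower and a median log2 fold change of 0.47. Of all genes tested, 20.4% were higher and 21.1% lower. Hspa2, known best from the testis, had 11.7 to 13.7 CPM in number 4 and 3.28 to 5.66 CPM in numbers 1 to 3, a log2 fold change of 1.55 (edgeR adjusted p = 6.21e-06). Hspa5 (BiP), the HSP70 of the endoplasmic reticulum and a target of the unfolded protein response, rose by 0.81 (adjusted p = 1.36e-05), Hspa4l, an HSP110 protein, by 0.70 and the atypical member Hspa12a by 0.49. Mitochondrial Hspa9 gave 0.12 (adjusted p = 0.137).

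Among the other J-domain genes, 3 of 14 rose and 3 fell, with a median of 0.06, shares that lie near the 20.4% higher and 21.1% lower of all genes. The count of higher genes was 5 without control number 2 and with DESeq2. Those higher were Dnajb4 (log2 fold change 1.06), Dnaja4 (0.80) and Dnaja1 (0.52), cytosolic partners of HSP70, and those lower were Dnajb9 (-0.48), of the endoplasmic reticulum, Dnajc7 (-0.37) and mitochondrial Dnaja3 (-0.34). The HSP90 paralogs and co-chaperones had 9 of 16 genes higher, 1 lower and a median of 0.22, and without control number 4 the count of higher genes was 5. Ahsa2 and Ahsa1, whose family stimulates the HSP90 ATPase, rose by 0.58 and 0.31, Hsp90b1, the HSP90 of the endoplasmic reticulum, by 0.57, Ptges3 (p23) by 0.43 and Stip1 (HOP), which joins HSP70 to HSP90, by 0.37, whereas Unc45a, the myosin chaperone, was lower at -0.29. The shares in the next 3 lists were also near those of all genes, 20.4% higher and 21.1% lower, so their counts show nothing particular to them. The HSP70 exchange factors and partners had 3 of 10 genes higher and 2 lower. Bag3, which couples HSP70 to autophagy, was higher at 0.49 and Bag5 lower at -0.27. Of 6 tested genes listed as small heat shock proteins, Hspb11 rose (0.50) and Cryab fell (-0.30). Both calls were lost without control number 4, and the Cryab call also without mimic number 4. The cytosolic chaperonin TRiC had 2 of 8 subunits higher, Cct5 (0.24) and Tcp1 (0.12), and its count ranged from 1 to 4 over the alternatives.

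A list of 17 further genes reported as HSF1 targets had 12 higher and 0 lower, with a median log2 fold change of 0.31 beside -0.00 for all genes, of which 20.4% were higher and 21.1% lower. The split was 9 higher and 2 lower with limma on TPM at both pseudocounts, and 8 higher and 0 lower without control number 4. Since 12 of the 17 stand in the lists above, that count is largely made of the same genes. Of the 5 found in no other list, 3 rose, among them the haem oxygenase gene Hmox1 (0.48, edgeR adjusted p = 0.000213) and the mitochondrial ribosomal protein gene Mrpl18 (0.23, adjusted p = 0.0118). The 2 that did not pass were Ubb (-0.16, edgeR adjusted p = 0.0825) and the collagen chaperone gene Serpinh1 (-0.17, adjusted p = 0.475).

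**Figure D4:**
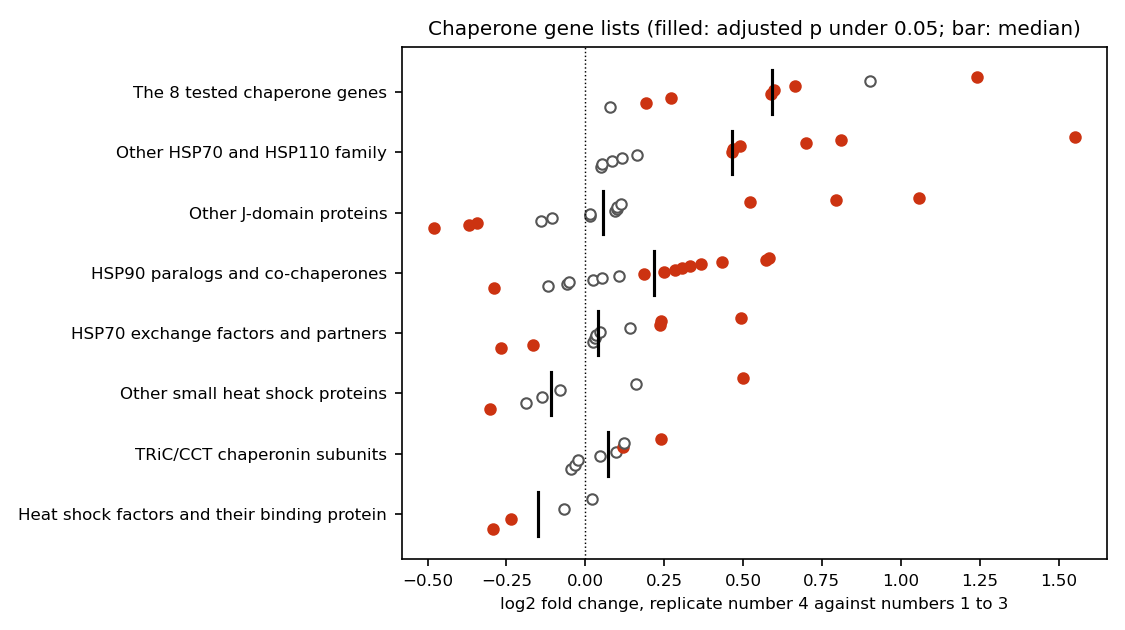
log2 fold changes in number 4 against numbers 1 to 3 for the 8 tested chaperones and 7 further chaperone lists, 1 point for each gene and a bar at the median; filled points passed an adjusted p of 0.05 (edgeR). The chaperones described and the remaining HSP70 and HSP110 genes lie to the right of 0, while the J-domain genes lie on both sides and the heat shock factors at or below 0.02.

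Cell identity markers also differed in number 4. Among neuron and neuroblastoma markers 3 of 9 rose and 4 fell, and without control number 4 the count of lower markers was 2. Of all genes tested, 20.4% were higher and 21.1% lower in number 4. Gata3 (-0.74), a transcription factor of the sympathetic lineage, was lower, and the cytoskeletal gene Tubb3 (0.44) and the growth cone gene Gap43 (0.39) were higher. The summed level of these markers was 5510 to 5690 TPM in number 4 and 5540 to 5920 TPM in numbers 1 to 3. Fibroblast markers had 1 of 3 higher (Pdgfra, 0.87), glial markers 0 of 3, and immune and endothelial markers 1 of 2 (Pecam1, 0.53). The fibroblast call was lost without control number 4, without mimic number 4 and with limma on log2(TPM + 0.1), and the immune and endothelial call without inhibitor number 4. Their summed levels were 1.07 to 1.73 TPM, 4.75 to 5.11 TPM and 2.77 to 3.04 TPM in number 4, beside 0.807 to 1.27 TPM, 3.42 to 4.83 TPM and 1.74 to 2.77 TPM in numbers 1 to 3. Col3a1, Lum, Aqp4 and Adgre1 had no row under their symbols in the deposited data, so no level can be given for them. The part of these markers in the chaperone differences was not tested.

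The genes whose profile was closest to the mean profile of the 8 chaperones over the 12 libraries, by the root mean square difference of centred log2 CPM, were Nlrp4c (0.0878), Elovl5 (0.0986), Abracl (0.0991), Bms1 (0.0992) and Gatad2b (0.101), where the median of 9092 genes was 0.32. The mean profile gave each of the 8 chaperones equal weight, so counting error in Hspa1b entered it in full. Hspa1b had 2 counts in control number 3, where the mean profile was lowest (-0.546), and 4 counts in inhibitor number 1. The ranking of closest genes thus rests in part on these low counts. Elovl5, a fatty acid elongase gene, had 215 to 228 CPM in number 4 and 126 to 154 CPM in numbers 1 to 3. Closest to Hspa1b alone were Mdm4 (0.798), Zbed6 (0.842), Syne3 (0.843), Pcdha8 (0.85) and Synm (0.851), where the median was 1.06. Each of these was further from its profile than the 5 genes above were from theirs.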

How the data were processed

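The authors deposited whole-number read counts per gene and TPM values for 12 libraries. The submitters' processing notes name the tools STAR, fastp, featureCounts, edgeR and StringTie and the build GRCm39. As to versions, roles and strandedness, they were not given in the sources used here. Tests were run in edgeR 4.0.16 (R 4.3.3) on the counts (TMM scaling, filterByExpr leaving 13014 genes, robust quasi-likelihood, two-sided, Benjamini-Hochberg over all genes tested, called under 0.05). Treatment comparisons used group as the only term, and number 4 against the mean of numbers 1 to 3 used group and number. CPM values use the scaled library sizes. Levels between genes use TPM. The steps were tested on simulated data. Alternatives were other size factors, no filter, DESeq2 1.42.0, limma 3.58.1 on log2(TPM + 1) and log2(TPM + 0.1), a replicate block, numbers 1 to 3 only, each library left out, and near-identical copies summed. The genes, lists and tests were chosen with earlier results of these data known. Named list genes were up to 4 called genes per list with the largest absolute log2 fold change, with Hsf1 and Hsf2 always named. The genes of closest profile were the 5 of smallest difference among those with a mean of at least 10 CPM. Hsf5, Hspa9, Dnajc7, Dnaja3, Ahsa1, Unc45a, Hmox1, Mrpl18, Ubb and Serpinh1 fall outside this rule and were chosen after their values were seen, and a few genes within it are not reported here. The other lists numbered 12. RefSeq and GENCODE M21 sequences are of GRCm38, not the authors' build. No 2 libraries of a group were copies (chi-square over genes per degree of freedom 20.7 to 241). Floors of 3 counts cover counting error only.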

Additional observations from a re-analysis of the deposited data

Results flagged for a closer look

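Of 28 groups of 4 libraries examined for the 10 chaperones, 7 had a library set apart from the other 3 by more than Dixon's 95% limit. Chance alone gives this in about 1 independent group in 20, but these groups share the same 12 libraries and are not independent. The limit was not applied to the other genes. Since 41.5% of all genes tested differed in number 4 (edgeR), the 7 are not shown to be particular to the chaperones. In each of the 7 the library was number 4 and the highest. In the inhibitor group these were Dnajb1 at 98.32 CPM, Hspe1 at 177.6 CPM and Hspa1a at 0.1567 CPM. In the control group they were Hspa8 at 1453 CPM, Hsph1 at 313.4 CPM, Dnajb1 at 90.29 CPM and Hspa1a at 0.07402 CPM. The Hspa1a values rest on 10 counts in the inhibitor library and 5 counts in the control library. Control numbers 1 to 3 were tied at 2 counts of Hspa1a, so the limit means little there.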

How the results depend on the processing

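The 6 chaperones higher in number 4 kept their direction under every alternative tried and their call under each except the Hspe1 call without control number 4 (0.156, adjusted p = 0.0832); the count of all genes called there ran from 3690 to 6589 over the alternatives. In the treatment comparisons 0 chaperones were called under any alternative. DESeq2 called 3 genes in mimic against control, 1 in inhibitor against control and 6 in mimic against inhibitor, and leaving out 1 library gave 0 to 1 genes in mimic against control, 0 in inhibitor against control and 0 to 1 in mimic against inhibitor, the 1 in each without control number 2. Signs of values near 0 turned. In mimic against control, Hspe1 was 0.012 with limma at both pseudocounts and 0.014 in numbers 1 to 3. In inhibitor against control, Hspa1b was 0.0611 with Hspa1a summed in, an alternative chosen after seeing the data. In mimic against inhibitor, Hspd1 was -0.000754 with other size factors, -0.000699 with DESeq2 and -0.00758 in numbers 1 to 3, and Hsph1 was 0.00627 with limma at both pseudocounts. The cause of these turns was not tested. With 1 library left out, the log2 fold changes that changed sign ranged as follows: in mimic against control, Dnajb1 -0.0494 to 0.341, Hsp90aa1 -0.0648 to 0.331, Hsp90ab1 -0.0433 to 0.112, Hspa1b -0.295 to 0.453, Hspa8 -0.321 to 0.541, Hspd1 -0.0431 to 0.0725, Hspe1 -0.0515 to 0.0529 and Hsph1 -0.0611 to 0.311; in inhibitor against control, Dnajb1 -0.0693 to 0.326, Hsp90aa1 -0.0107 to 0.354, Hspa1b -0.554 to 0.194, Hspa8 -0.271 to 0.557, Hspd1 -0.0461 to 0.0697 and Hsph1 -0.0229 to 0.321; in mimic against inhibitor, Dnajb1 -0.176 to 0.212, Hsp90aa1 -0.177 to 0.0998, Hsp90ab1 -0.122 to 0.0271, Hspa1b -0.0444 to 0.539, Hspa8 -0.44 to 0.374, Hspd1 -0.0175 to 0.0265 and Hsph1 -0.174 to 0.125. With the replicate block, 0 genes were called in each treatment comparison, with unadjusted p under 0.05 for 191, 161 and 139 genes, and Dnajb1 was 0.144 in mimic against control and 0.131 in inhibitor against control (adjusted p = 1 for both). Number 4 paired the libraries of all 3 groups, whereas numbers 1 to 3 did so at most in part. Deviations of same-numbered libraries correlated at -0.213 to 0.883 over 9219 genes, over 0.1 in 9 of 12 pairs. Pairs of other numbers correlated at -0.71 to 0.673. Only the 3 libraries numbered 4 correlated best with their own number in both other groups, at 0.77, 0.856 and 0.883. Mimic and inhibitor number 3 correlated at 0.543, but inhibitor and control number 2 at -0.213. The deviations were taken from group means that include number 4, so pairing among numbers 1 to 3 was poorly tested. The main treatment tests left the number out, so their spread holds the number 4 difference. Depth limits Hspa1a, Hspa1b, Hspb1 and Hsf5, read at 25 counts or fewer.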
